A study of Homo sapiens with 9 samples.

Results

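Tubulin isotypes are the gene products that pair as α- and β-tubulin and polymerise into microtubules. The human genome carries several genes for each, and the encoded proteins differ mostly in the acidic tail at the end of the chain, where enzymes add glutamates or glycines and remove the last tyrosine. Some isotypes are made in nearly every cell, whereas others are known from neurons (TUBB3, TUBB2B, TUBA1A, TUBB4A) or from testis (TUBA3C and its close copies), and the neuronal class III β-tubulin TUBB3 is also known from cancer cells.

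The 10 isotypes described here, TUBA1A, TUBA1B, TUBA3C, TUBA3D, TUBA4A, TUBB2A, TUBB2B, TUBB3, TUBB4A and TUBB6, were taken by gene symbol from a table of RNA-seq counts with 58884 genes. Beyond their family, the isotypes were chosen by the counts of BrM2 against Par, in which TUBA3C is among the largest rises, so the BrM2 values of TUBA3C and the comparison of BrM2 with Par are given as a description, with no test. The cells were MDA-MB-231, a human breast cancer line. Par is the parental population, LM2 is its lung metastatic variant and BrM2 is its brain metastatic variant, so each metastatic population stands for 1 selected derivative of the same parental line. No treatment is labelled. All lines were grown in monolayer with serum for 3 days, and each line had 3 biological replicates from different passages, which makes 9 libraries.

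Counts on genes ranged from 19878879 to 23948742 in Par, from 23581487 to 24511786 in LM2 and from 14371858 to 22055215 in BrM2. Levels are given as CPM, the counts of a gene scaled to the normalized library size. The line carries an epithelial label, and of 12 breast epithelial markers the keratins KRT8 and KRT18 were the highest, at a mean of 853 and 432 CPM in Par, while CDH1 was at 1.2 CPM. The summed level of that list was 1160 to 2240 CPM in Par, 626 to 1680 in LM2 and 774 to 1720 in BrM2. Of 6 mesenchymal markers, VIM and FN1 were the highest and TWIST1 had at most 3 counts in every library, and the list summed to 1570 to 1840 CPM in Par, 2630 to 3070 in LM2 and 1620 to 2170 in BrM2. The sum hides opposite differences of BrM2 from Par. In Par, LM2 and BrM2, VIM was at a mean of 725, 1540 and 1500 CPM, and FN1 at 886, 1130 and 290 CPM. As these are bulk libraries, fewer cells of a kind and less RNA per cell cannot be told apart.

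Replicate 1 of every line stood apart from replicates 2 and 3, and the tubulins moved with it. TUBA1A, TUBA1B, TUBA4A, TUBB2A, TUBB2B and TUBB6, the 6 isotypes that passed the filter on low counts in every line, were higher in replicate 1 of all 3 lines, by 0.73 (TUBB6) to 1.09 (TUBA1B) on the log2 scale as a mean of the lines. Among 12926 genes with counts in every library, the median of this shift was 0.01 and the 90th percentile was 0.87, and 41% were higher in replicate 1 of all 3 lines. The low TUBA3D went the other way in Par, where replicate 1 was its lowest library, at 1.42 CPM against 2.18 and 1.85. The shift moved with the GC content of the transcript, with a Spearman correlation of 0.81 across 12813 genes, which are not independent replicates. The transcripts of the 10 isotypes hold 51.3% to 62.2% GC. Among 4413 genes with 51% to 63% GC, the median shift was 0.59 and the 90th percentile was 0.98. TUBD1 and TUBE1, the δ- and ε-tubulins of centrioles, hold 40.7% and 38.2% GC and were lower in replicate 1, by a log2 shift of -1.33 and -0.95. Whether base composition produced the shift was not tested.

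**Figure D1:**
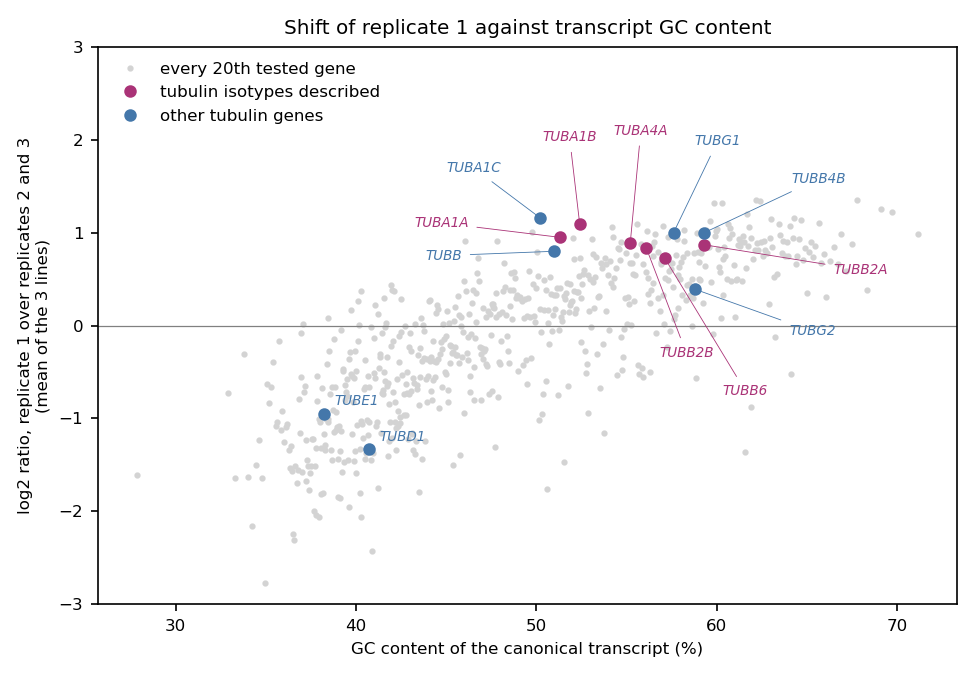
Each point is a gene, with the GC content of its canonical transcript in percent on the x axis and, on the y axis, the log2 ratio of replicate 1 over the mean of replicates 2 and 3, averaged over the 3 lines (grey, every 20th tested gene; axis cut at -3 and 3). The 6 isotypes that passed the filter in every line (purple) lie between 0.73 and 1.09, and of the other tubulin genes (blue) TUBD1 and TUBE1 lie below 0.

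Same-numbered libraries of different lines deviated together, with correlations of 0.23 to 0.90, most clearly those of replicate 1. Libraries numbered 2 and 3 of different lines also correlated, at 0.39 to 0.80. Only replicate 1 is thus set apart, and pairing of replicates 2 and 3 by number is not shown. Each comparison was fitted without the replicate number and again with the number as a block. A call that differs between these fits is given for both. The isotypes are close copies of each other in places, which limits how reads are assigned. Over their coding sequences TUBB2A and TUBB2B differ at 25 aligned positions (98.1% identity), TUBA1A and TUBA1B at 38 (97.2%) and TUBA3C and TUBA3D at 46 (96.6%), while TUBB6 shares at most 87.5% with any other β-tubulin of the set. The 60 coding bases in which TUBA3C and TUBA3D differ most, bases 292 to 351 counted from the start codon, are shown because they tell reads of the gene that changed most from those of its copy. Capitals mark the bases that differ.
TUBA3C: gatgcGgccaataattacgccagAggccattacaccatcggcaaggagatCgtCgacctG
TUBA3D: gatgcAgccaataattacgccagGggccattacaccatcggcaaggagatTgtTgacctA

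The last 60 coding bases, up to the stop codon, encode the acidic tail that sets the isotypes apart, and are shown for 3 β-tubulins. Capitals mark bases that differ from TUBB2A and, in TUBB2A itself, from TUBB2B. All sequences are from GENCODE transcripts of the human reference.
TUBB2A: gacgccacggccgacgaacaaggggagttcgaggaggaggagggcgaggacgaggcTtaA
TUBB3: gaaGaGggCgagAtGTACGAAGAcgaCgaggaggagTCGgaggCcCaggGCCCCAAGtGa
TUBB6: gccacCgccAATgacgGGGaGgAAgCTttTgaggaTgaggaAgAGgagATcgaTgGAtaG

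TUBB3 differs from TUBB2A at 28 of these bases and TUBB6 at 23. Of all 50-base stretches of the canonical transcripts, 83.1% of those of TUBA3C, 47.2% of those of TUBA3D, 98.9% of those of TUBB6, 35.4% of those of TUBB2A and 45.1% of those of TUBB2B occur in no other gene. For TUBB3 the share was 7.2%, since a readthrough gene on the same strand (ENSG00000198211) contains 92.8% of its stretches. That readthrough gene had no count in any library. Counting tools that leave out reads falling on more than 1 gene would leave out most reads of TUBB3, so the level of TUBB3 in these cells cannot be read from its counts. Genes on the opposite strand also overlap the exons of TUBA1B (TUBA1B-AS1, 44% of its exon bases, mean count 1.8), TUBA4A (STK16, 17%, mean count 990.4) and TUBB6 (AFG3L2, 21.2%, mean count 1649.4), among others. Those of TUBA1A are overlapped by the abundant TUBA1C (9%, mean count 13964.8). The strand that was counted is not given in the sources used here.

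Of the 10 isotypes, 7 passed the filter on low counts, which asked for more than 47.15 normalized counts in at least 1 library. TUBB2B passed at 120, and TUBA3C passed through its BrM2 libraries alone. TUBA3D, TUBB3 and TUBB4A stayed below, with largest values of 46, 36.7 and 12.2. Without the filter these could be fitted, and their values are named as such.

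TUBA3C (ENSG00000198033, chr13:19173772-19181824 in GRCh38.p14, minus strand) encodes an α-tubulin known from testis. It had 911, 588 and 528 counts in the BrM2 replicates 1, 2 and 3, against 0, 0 and 3 in Par and 2, 0 and 1 in LM2. Every BrM2 library was therefore far above every other library, and Par and LM2 were at the floor of 3 counts. The mean level in BrM2 was 39.5 CPM ± 24 (SD, n = 3), with 67.3 CPM in replicate 1 and 26 and 25.3 CPM in the others. Against 3 counts per library, BrM2 was at least 282-fold higher than Par and at least 307-fold higher than LM2. Without replicate 1 of each line the bounds were 195-fold and 216-fold. Its rise from Par ranked 5 among 11875 genes with a mean of at least 50 counts.

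TUBA3D (ENSG00000075886, chr2:131476119-131482934, plus strand), the near copy of TUBA3C, did not follow it. It had 19, 28 and 22 counts in BrM2, 20, 31 and 25 in LM2 and 27, 45 and 47 in Par. Its level was 1.23 CPM ± 0.174 in BrM2, 1.07 ± 0.168 in LM2 and 1.81 ± 0.381 in Par (SD, n = 3 each). The third copy, TUBA3E, had at most 4 counts in any library. So while TUBA3C had over 500 counts in each BrM2 library, few reads were counted on the copies. With the counts of the 3 genes added up, the fitted log2 difference of BrM2 was 4.38 from Par and 5.09 from LM2. Without the filter, TUBA3D differed between LM2 and Par by a log2 fold change of -0.75 ± 0.40 (SE; edgeR adjusted p = 0.48), and with the replicate block by -0.75 ± 0.28 (adjusted p = 0.052).

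Germ cell and neuronal markers were listed to see what else came with a testis α-tubulin and with neuronal isotypes. Of 12 male germ cell markers, 9 (DAZL, DDX4, SYCP1, ACR, TNP1, PRM1, PRM2, ODF1 and TEKT1) had at most 3 counts in every library. The 2 highest were TSSK6 and ACRV1, at a mean of 0.792 and 0.805 CPM in BrM2, and the list summed to 1.77 to 1.92 CPM in BrM2, 1.49 to 2.78 in LM2 and 1.57 to 2.23 in Par. Of 12 neuron markers, 8 (RBFOX3, SYN1, NEFL, NEFM, INA, GAP43, ELAVL3 and ELAVL4) had at most 3 counts in every library. The neuron list summed to 22.4 to 23.6 CPM in Par, 37.2 to 45.9 in LM2 and 32.2 to 44.9 in BrM2, mostly from DLG4, a postsynaptic scaffold protein, at 16.8, 27.5 and 35 CPM. By the mean over all libraries the next was SYT1, at 3.32, 4.71 and 2.28 CPM. SNAP25, named after its values were seen, was above SYT1 in LM2, at 6.06 CPM, and below it in Par (0.892) and BrM2 (0.383).

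**Figure D2:**
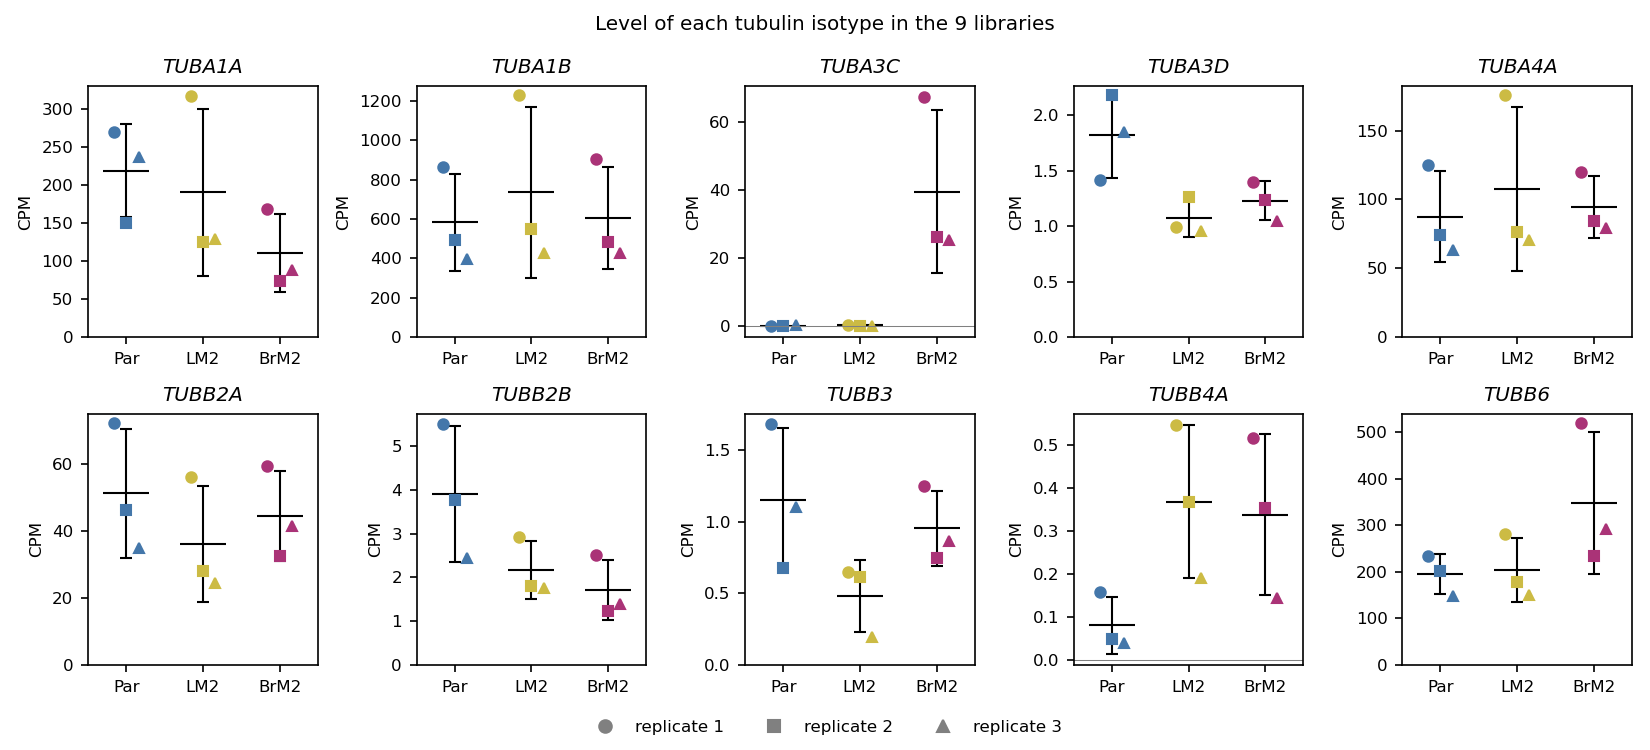
Level in CPM (y axis, linear and different in each panel) of the 10 isotypes in the libraries of Par, LM2 and BrM2; symbols mark the replicate number, horizontal bars the mean and whiskers the SD (n = 3). TUBA3C is at 25.3 CPM or more in BrM2 and under 0.12 CPM elsewhere, and replicate 1 (circles) is the highest library of each line for TUBA1A, TUBA1B, TUBA4A, TUBB2A, TUBB2B and TUBB6.

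The other α-tubulins of the set were expressed in all lines. TUBA1B (ENSG00000123416, chr12:49127782-49131395) is made in nearly all cell types and had the highest counted level of the set. It was at 863, 496 and 395 CPM in Par, 1230, 548 and 428 CPM in LM2 and 906, 483 and 430 CPM in BrM2, so the lines overlapped. Only 12.9% of the 50-base stretches of TUBA1B occur in no other gene. TUBA1A holds 38.6% of them, TUBA1C 37.2% and TUBA1B-AS1 68.7%. Its level and differences therefore depend on how shared reads were assigned. TUBA4A (ENSG00000127824, chr2:219249710-219254740), an α-tubulin gene that encodes no final tyrosine, was at 125, 73.9 and 63.5 CPM in Par, 176, 76.1 and 70.7 in LM2 and 120, 84.1 and 79.5 in BrM2. Neither gene passed the threshold in LM2 against Par or in BrM2 against LM2, with or without the block. With the block, TUBA1B differed by 0.26 ± 0.12 and -0.21 ± 0.12 on the log2 scale in these comparisons (edgeR adjusted p = 0.11 and 0.19), and TUBA4A by 0.24 ± 0.14 and -0.08 ± 0.15 (adjusted p = 0.22 and 0.69).

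TUBA1A (ENSG00000167552, chr12:49184795-49189080), the α-tubulin of the developing brain in which mutations cause lissencephaly, was lowest in BrM2. It was at 169, 73.5 and 89.1 CPM in BrM2, at 318, 126 and 129 CPM in LM2 and at 270, 151 and 237 CPM in Par. BrM2 was below LM2 and below Par at each replicate number, although the lines overlapped because of replicate 1. Relative to LM2, BrM2 differed by -0.79 ± 0.45 without the block on the log2 scale (edgeR adjusted p = 0.38) and by -0.76 ± 0.17 with it (adjusted p = 0.0065). With the block, the call was lost without LM2 replicate 1, at -0.57 (adjusted p = 0.053). Without replicate 1 of all lines and without the block it was -0.64 (adjusted p = 0.04). From Par, BrM2 differed by -0.99 and, with the block, by -1.06. LM2 differed from Par by -0.20 ± 0.45 (adjusted p = 0.89) and by -0.31 ± 0.17 with the block (adjusted p = 0.19). It passed without replicate 1 of all lines, at -0.60 (adjusted p = 0.047), and with the block without Par replicate 1, at -0.53 (adjusted p = 0.023). Only 49.4% of the 50-base stretches of TUBA1A occur in no other gene. With the counts of TUBA1A, TUBA1B and TUBA1C added up the BrM2 call was lost, at -0.41 ± 0.47 from LM2 (adjusted p = 0.72) and -0.31 ± 0.13 with the block (adjusted p = 0.089). That sum mostly follows TUBA1B and TUBA1C, at a mean of 737 and 837 CPM in LM2 beside 191 for TUBA1A. It therefore cannot tell whether reads of TUBA1A were assigned to its copies.

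TUBB6 (ENSG00000176014, chr18:12307669-12329826), the widely expressed class V β-tubulin, was higher in BrM2. It was at 520, 233 and 291 CPM in BrM2, 281, 179 and 151 CPM in LM2 and 234, 202 and 148 CPM in Par, and BrM2 exceeded both other lines at each replicate number. Par and LM2 lay close, with a log2 fold change of 0.07 ± 0.35 and an edgeR adjusted p of 0.96. From LM2 to BrM2 it was 0.77 ± 0.35 without the block (adjusted p = 0.26) and 0.75 ± 0.16 with the block (adjusted p = 0.0046). Without replicate 1 of all lines and without the block it was 0.68 (adjusted p = 0.022). With the block it passed in 9 of 9 fits that each left out 1 library, at 0.62 to 0.94, and it missed the threshold when replicate 3 of all lines was left out, at 0.67 (adjusted p = 0.068). Against Par, the log2 difference of BrM2 was 0.84.

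TUBB2A (ENSG00000137267, chr6:3153666-3157544) and TUBB2B (ENSG00000137285, chr6:3224277-3227653) are neighbouring class II β-tubulin genes, and TUBB2B is known from migrating neurons. TUBB2A was at 72.5, 46.5 and 35 CPM in Par, 56.1, 28.2 and 24.4 CPM in LM2 and 59.4, 32.7 and 41.6 CPM in BrM2. TUBB2B was far lower, with 105, 78 and 62 counts in Par, 59, 44 and 46 in LM2 and 34, 28 and 29 in BrM2. LM2 was below Par at each replicate number for both genes. In CPM the ranges of TUBB2B overlapped, at 2.44 to 5.52 in Par, 1.76 to 2.93 in LM2 and 1.24 to 2.51 in BrM2.

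Between LM2 and Par, TUBB2A differed by -0.50 ± 0.40 without the block (edgeR adjusted p = 0.59) and by -0.54 ± 0.16 with it (adjusted p = 0.023). TUBB2B differed by -0.85 ± 0.40 (adjusted p = 0.28) and by -0.83 ± 0.22 with the block (adjusted p = 0.015). Both calls with the block passed in 6 of 9 fits that each left out 1 library, and were lost in the others. That of TUBB2A was lost without LM2 replicate 2 (-0.52, adjusted p = 0.10), LM2 replicate 3 (-0.44, adjusted p = 0.12) or Par replicate 2 (-0.40, adjusted p = 0.077). That of TUBB2B was lost without LM2 replicate 1 (-0.77, adjusted p = 0.072), LM2 replicate 2 (-0.79, adjusted p = 0.08) or Par replicate 2 (-0.67, adjusted p = 0.078). With the block and replicate 1, 2 or 3 left out of all lines, TUBB2B missed the threshold each time (adjusted p = 0.099, 0.082 and 0.051). TUBB2A then missed it without replicate 1 (-0.63, adjusted p = 0.063) or replicate 3 (-0.50, adjusted p = 0.11). It passed without replicate 2 (-0.42, adjusted p = 0.036). Without replicate 1 of all lines and without the block, TUBB2A differed by -0.63 (adjusted p = 0.035) and TUBB2B by -0.79 (adjusted p = 0.073). With the counts of both genes added up, the blocked difference was -0.56 ± 0.16 (adjusted p = 0.019). Neither passed between BrM2 and LM2, where with the block TUBB2A differed by 0.36 ± 0.16 (adjusted p = 0.097) and TUBB2B by -0.36 ± 0.24 (adjusted p = 0.26). TUBB2A did pass there without BrM2 replicate 2, at 0.45 (adjusted p = 0.031), and without replicate 2 of all lines, at 0.42 (adjusted p = 0.032). From Par, BrM2 differed by -0.21 for TUBB2A and by -1.21 for TUBB2B.

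TUBB3 (ENSG00000258947, chr16:89921925-89936097) and TUBB4A (ENSG00000104833, chr19:6494319-6502848) are the neuronal and brain β-tubulins of the set, and both had few counts. For TUBB3 these do not give its level, because of the readthrough overlap described above. TUBB3 had 32, 14 and 28 counts in Par, 13, 15 and 5 in LM2 and 17, 17 and 18 in BrM2. Its levels in LM2, 0.646, 0.612 and 0.192 CPM, were below the lowest Par library at 0.678 CPM and the lowest BrM2 library at 0.75 CPM. TUBB4A had 3, 1 and 1 counts in Par, 11, 9 and 5 in LM2 and 7, 8 and 3 in BrM2.

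Fitted without the filter, TUBB3 differed between LM2 and Par by a log2 fold change of -1.25 ± 0.50 (edgeR adjusted p = 0.22) and with the block by -1.24 ± 0.36 (adjusted p = 0.006), and TUBB4A by 2.15 ± 0.80 (adjusted p = 0.16) and by 2.14 ± 0.77 (adjusted p = 0.039). From LM2 to BrM2, TUBB3 differed by 0.99 ± 0.38 with the block (adjusted p = 0.053) and TUBB4A by -0.15 ± 0.62 (adjusted p = 0.97). The Par libraries of TUBB4A were all at the floor of 3 counts, so the fitted size of its difference depends on the prior count. In the same fit with the block and no filter, 15.5% of 34056 genes were called between LM2 and Par and 16.7% between BrM2 and LM2. From Par, BrM2 differed by -0.56 for TUBA3D, -0.29 for TUBB3 and 1.98 for TUBB4A, and 19% of genes were called there. The TUBB3 counts are those left after the readthrough overlap described above, and whether that overlap differs between lines was not tested.

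TUBA3C is left out of the counts that follow, since its BrM2 values helped choose the set and it passed the filter through them alone. Of the other 6 tested isotypes, 0 passed the threshold between LM2 and Par without the block in edgeR, 0 had an unadjusted p under 0.05, and DESeq2 called 0. With the block 2 passed, TUBB2A and TUBB2B. Of all tested genes 8.69% were called without the block (4.17% higher, 4.52% lower) and 34.5% with it (15.5% higher, 19.1% lower), so the share of isotypes was not far from the background in either fit. None of the 6 separated LM2 from Par without overlap, whereas 25.2% of all tested genes did. The 3 isotypes below the filter, TUBA3D, TUBB3 and TUBB4A, did separate these lines, on 1 to 47 counts a library. The share of all genes below the filter that did so was not computed, so nothing is read from this.

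Again 0 of the 6 were called between BrM2 and LM2 without the block in edgeR, 0 had an unadjusted p under 0.05, and DESeq2 called 0, against 8.1% of all genes (4.11% higher, 3.99% lower). With the block 2 were called, TUBB6 as higher and TUBA1A as lower, against 37.5% of all genes (17.8% higher, 19.7% lower). None of the 6 separated these lines without overlap, against 23.1% of all tested genes. Of the 3 below the filter TUBB3 did, again with no share of such genes to set beside it. Between BrM2 and Par, where the set was chosen and nothing is read from the count, 0 of the 6 were called without the block by edgeR or DESeq2, with 2 at an unadjusted p under 0.05, beside 13.3% of all genes (6.25% higher, 7.02% lower). With the block 3 were called, beside 42.7% (19.5% higher, 23.2% lower), and 0 of 6 did not overlap, beside 31.3%. The comparisons share libraries pairwise and are not independent.

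**Figure D3:**
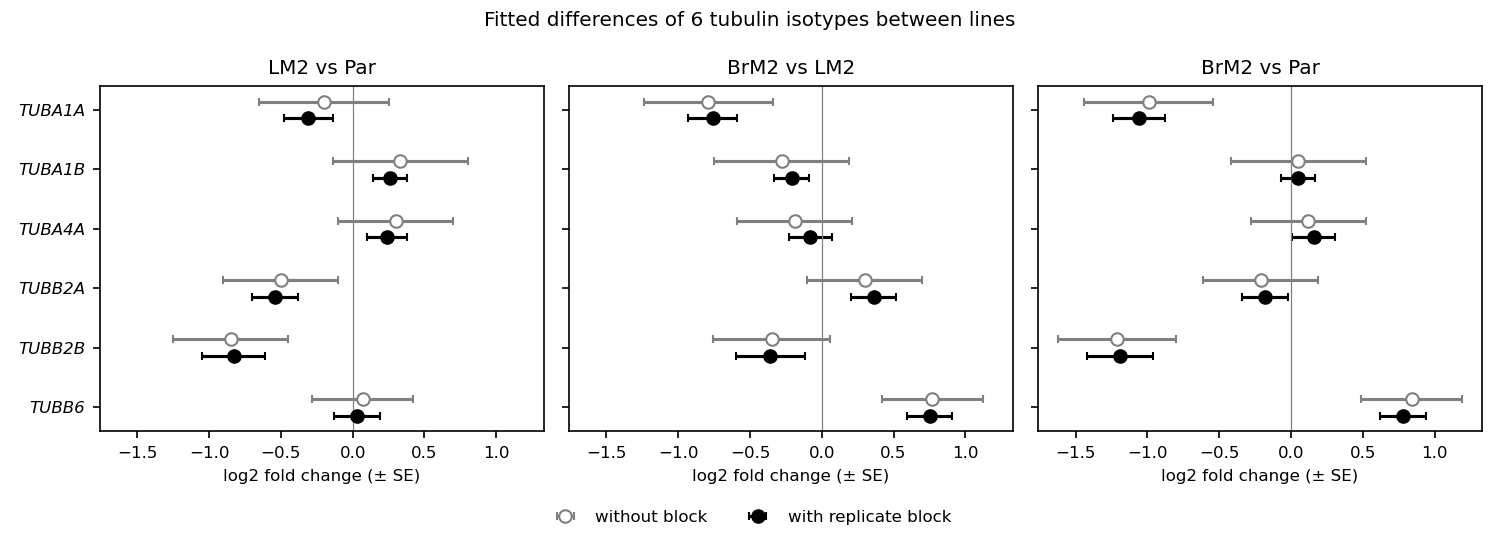
Fitted log2 fold changes with SE (x axis) of 6 isotypes in the 3 comparisons of lines, without the replicate number (open) and with it as a block (filled); TUBA3C and the isotypes below the filter are left out. With the block TUBB2A and TUBB2B lie below 0 in LM2 against Par (-0.54 and -0.83), and TUBA1A and TUBB6 lie on opposite sides in BrM2 against LM2 (-0.76 and 0.75).

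To compare isotypes with each other, CPM was divided by the length of the canonical transcript and expressed as a share of all α- or all β-tubulin genes of a library. These shares depend on how reads of near copies were assigned. Within the α-tubulins, TUBA1B made up 48.5% ± 5.05 in Par, 49.6% ± 3.22 in LM2 and 50.7% ± 1.86 in BrM2 (SD, n = 3), so its share differed by less than the spread. TUBA1C, which lies outside the set, followed with 26.8% to 31.9%. TUBA1A held shares from 14.8% to 25.3% in Par, from 11.9% to 13.7% in LM2 and from 7.22% to 10.3% in BrM2, and these ranges did not overlap. Such separation was common on this scale. With TUBA3C left out, the shares of 5 of 9 isotypes did not overlap between LM2 and Par, and 5 of 9 between BrM2 and LM2. A share also moves when another tubulin moves, so the separation is not read as a change of TUBA1A itself. TUBA4A stayed near 6% in all lines, at 5.81% ± 0.44 in Par, 5.84% ± 0.3 in LM2 and 6.58% ± 0.97 in BrM2. TUBA3C made up 4.17%, 2.8% and 3.2% of the α-tubulin mRNA of BrM2 and at most 0.0138% elsewhere, and TUBA3D at most 0.251% in any library.

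Within the β-tubulins, TUBB6 held 9.93%, 7.32% and 9.85% in BrM2, against 4.68%, 5.65% and 5.31% in LM2 and 4.32%, 5.82% and 5.26% in Par. On this scale, which leaves out what all β-tubulins of a library share, BrM2 did not overlap with the other lines. The shares of 5 of 9 isotypes did not overlap between BrM2 and LM2. The abundant TUBB4B, outside the set, held 19.6% in BrM2 and 31.1% in LM2, and the other shares move with it. TUBB2A held 1.08%, 1.04% and 0.999% in LM2, below 1.56%, 1.56% and 1.45% in Par and 1.32%, 1.19% and 1.64% in BrM2. TUBB2B held 0.0967% ± 0.0109 in Par, 0.0546% ± 0.00645 in LM2 and 0.0436% ± 0.00492 in BrM2. The counts of TUBB3 gave at most 0.0431% in any library, which cannot be taken as its true share given the readthrough overlap. With 3 libraries against 3, an exact 2-sided permutation test of a share cannot go below 0.1, so no p is given for the shares.

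**Figure D4:**
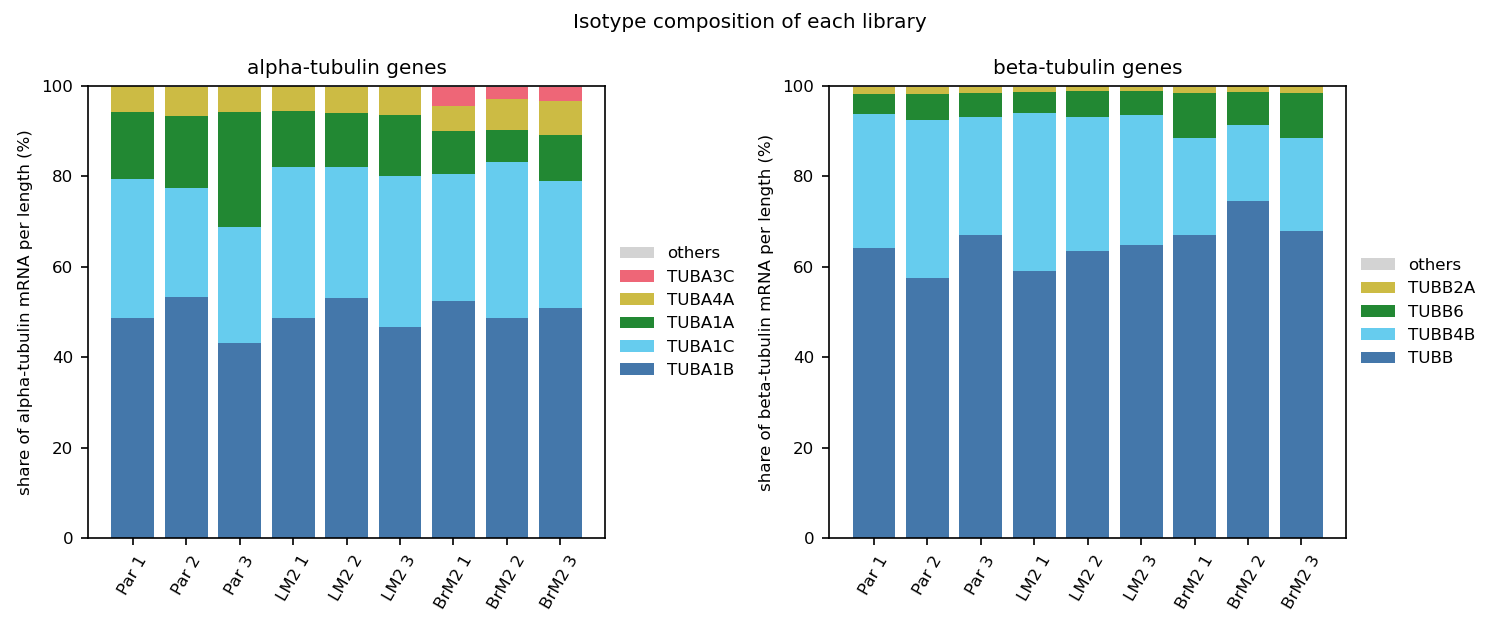
Share in percent (y axis) of each isotype in the summed CPM per transcript length of the α-tubulin genes (left) and β-tubulin genes (right), by library (x axis). TUBA3C is visible in the BrM2 libraries, at 2.8% to 4.17%, and is at most 0.0138% elsewhere, and TUBB6 takes 7.32% to 9.93% of the β-tubulin mRNA in BrM2 against 4.32% to 5.82% in the other libraries.

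The remaining 12 tubulin genes gave the frame for these shares, and 7 of them were tested. TUBB, the class I β-tubulin of most cells, was the most abundant at 62.5% to 69.9% of the β-tubulin mRNA, with a blocked log2 fold change of 0.01 ± 0.11 in LM2 against Par and 0.11 ± 0.11 in BrM2 against LM2 (edgeR adjusted p = 0.97 and 0.44). TUBB4B, a class IV isotype of cilia and many tissues, was lower in BrM2 than in LM2 with the block (-0.70 ± 0.17, adjusted p = 0.0078) and not without it (-0.76 ± 0.46, adjusted p = 0.41), and it held 19.6% ± 2.51 of β-tubulin mRNA in BrM2 and 31.1% ± 3.37 in LM2. None of the 7 passed without the block. With it, TUBE1 (0.74 ± 0.16, adjusted p = 0.0046), TUBA1C (0.48 ± 0.17, adjusted p = 0.045) and TUBG2 (-0.52 ± 0.14, adjusted p = 0.017) passed between LM2 and Par, and TUBG2 beside TUBB4B between BrM2 and LM2 (0.62 ± 0.14, adjusted p = 0.0072). TUBG1, the γ-tubulin that nucleates microtubules, and TUBD1 passed in neither. TUBA3E, TUBA8, TUBAL3, TUBB1 and TUBB8 stayed below the filter.

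Genes whose products fold, modify or bind the isotypes were counted from 3 lists with 80 rows, of which 67 were tested. Between LM2 and Par 2 passed without the block (2.99%, beside 8.69% of all genes) and 16 with it (23.9%, beside 34.5%; 9 higher, 7 lower), with a blocked median of 0.01 beside -0.02 over all genes. From LM2 to BrM2 4 passed without the block, all lower (5.97%, beside 8.1% of all genes), and 27 with it (40.3%, beside 37.5%; 19 higher, 8 lower), with a blocked median of 0.12 beside -0.02. DCLK1, a kinase with the microtubule-binding domain of doublecortin, was at 42.8, 103 and 107 CPM in LM2, against 1.68, 2.08 and 2.87 in Par and 4.06, 5.92 and 5.13 in BrM2. LM2 was thus far above both other lines, by 5.24 ± 0.43 from Par on the log2 scale (edgeR adjusted p = 0.00021), and BrM2 differed from LM2 by -4.06 ± 0.41 (adjusted p = 5e-04). MAPRE3, the end-binding protein EB3 of growing microtubules, was lower in LM2 than in Par by -2.01 ± 0.31 (adjusted p = 0.0046).

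STMN3, a neuronal protein of the stathmin family that binds tubulin dimers, was at 7.68, 4.41 and 3.93 CPM in BrM2, 45.4, 27.8 and 20.1 in LM2 and 72.7, 50.7 and 37 in Par. The BrM2 libraries lay below all others, with -2.55 ± 0.42 from LM2 (edgeR adjusted p = 0.0059). HDAC6, which removes acetyl groups from α-tubulin, was at 51.6 to 74.4 CPM in BrM2 and 104 to 162 in LM2, a difference of -1.04 ± 0.22 (adjusted p = 0.023). TTLL3, which adds glycine to the tails, differed by -1.17 ± 0.24 (adjusted p = 0.017). ATAT1, the acetyltransferase opposite to HDAC6, passed between LM2 and Par with the block, at -0.70 ± 0.13 (adjusted p = 0.0025), and not without it (adjusted p = 0.053).

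The folding list, which holds the chaperonin, prefoldin and the tubulin cofactors, had 22 tested genes. Between BrM2 and LM2 none passed in edgeR without the block (2 at an unadjusted p under 0.05, and 1 in DESeq2), and with the block 10 were higher and 0 lower (45.5% called, beside 37.5% of all genes, of which 17.8% higher and 19.7% lower), with a blocked median of 0.33 beside -0.02. Of the 8 chaperonin subunits, 5 passed with the block, from CCT6A at 0.85 ± 0.13 (adjusted p = 0.00062) to TCP1 at 0.34 ± 0.11 (adjusted p = 0.034). Among the cofactors TBCB was at 0.76 ± 0.12 (adjusted p = 0.00085). Between LM2 and Par none passed without the block (1 at an unadjusted p under 0.05, and 2 in DESeq2), and with it 3 were higher and 2 lower (22.7% called, beside 34.5% of all genes). ARL2, a GTPase that works with the tubulin cofactors, was among the lower, at -0.97 ± 0.21 (adjusted p = 0.0047), and CCT3 (0.46 ± 0.13, adjusted p = 0.018) and CCT2 (0.43 ± 0.11, adjusted p = 0.012) were among the higher.

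By Pearson correlation of log2 CPM over the 9 libraries, given as a description, the genes most like TUBA3C among 11868 were CYFIP2 (0.991), LINC02582 (0.991), NEO1 (0.989), KIRREL3 (0.987) and P3H2 (0.987). LINC02582 and KIRREL3 also had few counts outside BrM2, with at most 7 and 8 in any Par or LM2 library and at least 1479 and 331 in BrM2, whereas NEO1 and P3H2 were expressed in all lines. The genes most like the few counts of TUBB3, which do not give its level, were INCA1 (0.926), PSMB1 (0.921), KLHDC8B (0.913), MED10 (0.912) and LOXL1 (0.912). The libraries share lines and the replicate 1 shift, so these values describe the pattern of 9 points only.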

How the data were processed

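RNA was measured by stranded, paired-end mRNA sequencing in 9 libraries (Par, LM2 and BrM2, n = 3 each). The authors aligned the reads to hg38 and deposited the counts per gene that STAR 2.7.0 gave, without normalization; the strand counted is not given in the sources used here. A table of the authors' own comparisons (fold changes and p-values from DESeq2) was not used.

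Of 58887 rows, 3 repeated identifiers with identical counts were kept once. A filter built after HTSFilter, which the study used, compared 100 values between 1 and 200 for a gene's largest normalized count and took 47.15, leaving 13055 genes. Differences were tested with the 2-sided quasi-likelihood test of edgeR 4.0.16 (TMM, line only, 9 libraries) with Benjamini-Hochberg adjustment over all tested genes at 0.05. Same-numbered libraries of different lines had correlated deviations in all 9 pairs (0.23 to 0.90), so fits with the number as a block are given beside. Libraries numbered 2 and 3 of different lines also correlated, from 0.39 (LM2 3 with Par 2) to 0.80 (BrM2 2 with LM2 3). The numbers thus set replicate 1 apart, and pairing of replicates 2 and 3 by number is not shown. No label says what same-numbered libraries share. The common dispersion was 0.11 without and 0.0207 with the block. DESeq2 1.42.0 and other settings were alternatives. The scripts were tested on simulated data. R 4.3.3 and Python 3.11.15 were used.

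Positions are from RefSeq (GRCh38.p14), and lengths, GC content, shared stretches and coding sequences from GENCODE canonical transcripts of GRCh37, another build than that of the counts. CPM of 3 counts (the floor) was 0.115 to 0.221, and covers counting error only. Without the block, p-values measure the spread between cultures at different passages, with the replicate 1 shift in it. With the block, they measure the spread left after the part shared by same-numbered libraries is taken out.

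The isotypes, the lists and the tests were chosen with earlier results of these data known. The text names all 10 isotypes, the other tubulin genes, per list and comparison the 3 largest differences past the threshold with or without the block, marker genes at the floor with the 2 highest, and the 5 genes most like TUBA3C and TUBB3. Of the folding, modifying and binding lists, some genes that the rule names are covered by the counts alone.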

Additional observations from a re-analysis of the deposited data

How the results depend on the processing

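Isotypes called, TUBA3C included, numbered 0 between LM2 and Par, 1 between BrM2 and Par and 1 between BrM2 and LM2. With the replicate block they numbered 2, 4 and 3, and with the block and no filter on low counts (added after seeing the data) 4, 4 and 3. TUBA3C, which helped choose the set, was called in both comparisons with BrM2, so its call there is no result. Without it the isotypes called numbered 0, 0 and 0, beside 8.69%, 13.3% and 8.1% of all genes. With the block they numbered 2, 3 and 2 of 6, beside 34.5%, 42.7% and 37.5%. The isotype counts for left-out libraries below include TUBA3C. Genes of the microtubule lists called went from 2, 8 and 4 to 16, 28 and 27 with the block and to 17, 33 and 23 with the block and no filter, and all genes from 1134, 1733 and 1057 to 4510, 5577 and 4896 and to 5273, 6486 and 5704. The microtubule lists gave 5 between LM2 and Par without the filter; DESeq2 gave 8 there and 9 between BrM2 and LM2, and fitting only the lines compared gave 2 between BrM2 and LM2. For all genes DESeq2 called 1893 between LM2 and Par and 1824 between BrM2 and LM2, and fitting only the lines compared called 598 between BrM2 and LM2. Leaving out 1 library, or 1 replicate number from all lines, gave 0 to 2, 1 to 4 and 1 to 3 isotypes, 1 to 15, 0 to 27 and 0 to 27 list genes and 70 to 4327, 159 to 5274 and 53 to 4257 genes in all. The highest counts came without replicate 1 of all lines and the lowest of all genes without replicate 2. The cause was not tested.

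Of the values of single isotypes under the alternatives, 577 kept direction and call or moved within the spread, 54 newly passed, 26 moved by more than the spread and 21 changed sign. The last were differences that were not called. Leaving out libraries without the block gave, between LM2 and Par, -0.78 to 0.12 for TUBA1A, -0.26 to 0.73 for TUBA1B, -0.25 to 0.65 for TUBA4A and -0.24 to 0.24 for TUBB6 (among them -0.1 and -0.08), and between BrM2 and LM2 -0.69 to 0.31 for TUBA1B and -0.41 to 0.37 for TUBA4A (among them 0.17). TUBA1A also turned to 0.02 and 0.03 without LM2 replicates 3 and 2. With the block as well, TUBA1A turned to 0.03 without replicate 3 of all lines, TUBB6 between LM2 and Par to -0.11, -0.08, -0.02 and 0, and TUBA4A between BrM2 and LM2 to 0.09, 0.11 and 0.17. With the counts of paralogs added up TUBA1A turned to 0.35, and to 0.27 with the block, since the sum of 3 genes is then tested.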

Other observations

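Of the genes within 1 Mb of TUBA3C on chromosome 13, 6 were tested, and they were looked at after the values of TUBA3C were seen. FAM230C, 942 kb away, was high in the same line, with 43, 108 and 92 counts in the BrM2 replicates 1, 2 and 3, against 1, 3 and 1 in LM2 and 0 in every Par library. The other 5 (MPHOSPH8, PSPC1, ZMYM5, ZMYM2 and GJA3) were not called between BrM2 and LM2 by edgeR without the block, with log2 fold changes from -0.57 to -0.08. With the block ZMYM2 passed there, at an adjusted p of 0.031. Between LM2 and Par none of these 5 was called by edgeR without the block, and PSPC1 passed with it (adjusted p = 0.0065). From Par, BrM2 differed without the block by -0.37 (MPHOSPH8) to 0.39 (PSPC1), given as a description.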
